A study of Mus musculus with 8 samples.

Results

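The lysosome pathway genes were the rows of the mRNA table whose KEGG annotation names the lysosome pathway. They numbered 146 of 22298 genes, and their levels were followed through 4 stages of the B lineage in the marrow of mice. The cells came from female C57BL/6 mice aged 8 to 10 weeks, with no transgene or treatment in any group. Pro-B cells were sorted as B220+IgM-CD43+, pre-B cells as B220+IgM-CD43-, immature B cells as B220+IgM+CD43- and mature B cells as B220hi IgM+CD43-. Each stage had 1 library of RNA depleted of rRNA, made from pooled cells of 3 mice, so no difference between stages has a replicate check and no p-value is given. In pooled cells, fewer cells of a type and less RNA per cell cannot be told apart.

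Lysosomes are acidic organelles in which proteins, glycans, lipids and nucleic acids are broken down. The vacuolar ATPase (V-ATPase) pumps protons into the lumen, soluble hydrolases are tagged with mannose 6-phosphate and carried there by sorting receptors with clathrin and adaptor complexes, and membrane proteins carry the products out. In B cells the endosomal and lysosomal proteases also trim antigens and the invariant chain before peptides are loaded on MHC class II, and the membrane protein LAPTM5 takes part in the turnover of the antigen receptor. Many lysosomal genes carry the element bound by the transcription factors TFEB and TFE3, which act downstream of mTORC1 at the lysosomal surface.

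The deposited mRNA values were estimated counts, and here each was scaled to the sum of its mRNA column and given as CPM, so that a count weighs more in a smaller column. The column sums were 867920 in pro-B, 240231 in pre-B, 223495 in immature B and 849350 in mature B cells. One count was therefore 1.15 CPM in pro-B and 1.18 CPM in mature B cells but 4.16 CPM in pre-B and 4.47 CPM in immature B cells. A count of 0 was treated as up to 3 counts, that is up to 3.46, 12.5, 13.4 and 3.53 CPM from pro-B to mature B. The mRNA counts made up 23.7% of the mRNA and lncRNA counts together in pro-B and 23.5% in mature B cells, but 6.48% in both pre-B and immature B cells. The pro-B and mature B marker lists were highest in the library of their own label. The 6 pro-B genes held 2321 CPM in the pro-B library and 44.7 to 179 CPM elsewhere. The 6 mature B genes held 12127 CPM in the mature library. The 4 immature B genes summed highest in immature B cells, at 9504 CPM. Of that sum Ighm was 7816 CPM, and it held 7147 CPM in pre-B cells. Ms4a1 and Igkc were highest in immature B cells, but Cd93 was highest in pro-B cells, at 429 CPM against 94.0 in immature B cells. The 4 pre-B genes were not highest in the pre-B library, at 1278 CPM in pro-B, 1066 in pre-B, 576 in immature B and 15.2 in mature B cells. Rag1 was at 918 CPM in pro-B against 372 in pre-B cells. The lists of other marrow cells were not at 0. NK and T cell genes held 205, 0, 0 and 5.89 CPM from pro-B to mature B, with 5 of 6 above 0 in pro-B cells. Plasmacytoid dendritic cell genes held 1062, 225, 386 and 259 CPM, with 7 of 7 above 0 in pro-B cells. Monocyte and macrophage genes held 1023, 437, 325 and 358 CPM, with Csf1r and Cd14 at 0 counts in all libraries. Neutrophil genes held 1247, 1474, 1168 and 982 CPM, plasma cell genes 316, 375, 282 and 111 CPM, and erythroid genes 429, 395, 266 and 223 CPM. Of 7 osteoclast genes 5 were at 0 in all libraries, and Acp5 and Mmp9 carried the 111, 74.9, 49.2 and 157 CPM of that list.

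Of the 146 lysosome genes, 124 had counts in at least 1 library, 91 had counts in all 4 and 22 were at 0 throughout. The 22 included 9 cathepsins, among them the osteoclast cathepsin Ctsk. Together the lysosome genes took 7894 counts in pro-B, 1602 in pre-B, 1690 in immature B and 7182 in mature B cells. As a share of the mRNA counts this was 0.910% (95% Wilson interval 0.890 to 0.930), 0.667% (0.635 to 0.700), 0.756% (0.721 to 0.793) and 0.846% (0.826 to 0.865). The share was lowest in pre-B cells and highest in pro-B cells, and none of the 4 intervals overlapped another. All intervals here cover counting error only, since each stage had 1 library. Reads were counted without molecular identifiers, so the intervals may be too narrow even for that error. Of the 103 genes with at least 20 counts over the 4 libraries, 35 had their highest CPM in pro-B, 17 in pre-B, 23 in immature B and 28 in mature B cells. No share over all genes stands beside these numbers, so they are not read as a trait of the lysosome genes. They also depend on the CPM scale, on which 1 count weighs most in the small pre-B and immature B columns.

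Stages were compared for genes with at least 20 counts over the 2 libraries. A gene was called when its CPM ratio was at least 2-fold and the exact 95% interval of the ratio of the counts left out equal levels. The comparisons share libraries, so their counts are not independent of one another. Mature B cells against pro-B cells was the pair with the largest mRNA columns, with 97 lysosome genes compared. Of these, 16 were called higher in mature B cells, where 10.8% of all genes compared were called higher and 16.5% of the lysosome genes. Another 18 were called lower in mature B cells, against 19.9% of all genes and 18.6% of the lysosome genes. The median log2 ratio was -0.07 for the lysosome genes and -0.16 for all genes compared. Lysosome genes were called in both directions between the first and last stage, with a median close to that of all genes.

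In pre-B against pro-B cells, 87 lysosome genes were compared, of which 9 were called higher beside 13.6% of all genes, and 25 were called lower beside 29.4% of all genes. These were 10.3% and 28.7% of the lysosome genes, close to the share of all genes in each direction. In immature B against pre-B cells, 48 could be compared, of which 11 (22.9%) were called higher beside 12.5% of all genes. Another 3 (6.25%) were called lower beside 13.5% of all genes. The median log2 ratio in that comparison was 0.29 for the lysosome genes and -0.01 for all genes. Both mRNA columns were small. When counts were divided by 2 before the interval was taken, the 11 higher and 3 lower calls became 4 and 1. Beside these, 7.86% and 7.97% of all genes were called. That setting was chosen after small counts were seen to be mostly even. In mature B against immature B cells, 84 were compared, with 21 (25%) called higher beside 24.8% of all genes and 13 (15.5%) called lower beside 15.9%. With halved counts 13 were called higher beside 17.9% of all genes. Entpd4 and Entpd4b, between which reads were split, were each counted as a gene in these comparisons. On the CPM scale both are among the 9 called higher in pre-B against pro-B cells and the 11 called higher in immature B against pre-B cells. Both are also among the 13 called lower in mature B against immature B cells.

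How the libraries are scaled decides 2 of the 4 comparisons. The authors' FPKM values, which are fragments scaled to transcript length and to the mapped fragments of the library, imply a nearly equal scale in all libraries, although the mRNA column of the pre-B and immature B libraries was much smaller. On the scale that FPKM implies, the log2 ratios of pre-B against pro-B are lower by 1.93 and those of mature B against immature B are higher by 1.92. With that scale 2 of the 87 genes compared were called higher and 70 lower in pre-B against pro-B cells, beside 1.26% and 83.1% of all genes. In mature B against immature B cells 68 of 84 were called higher and 0 lower, beside 79.6% and 1.6% of all genes. The ratios of immature B against pre-B moved by 0.02 and those of mature B against pro-B by 0.01. For this reason the gene values below are read first for the pair of pro-B and mature B and for the pair of pre-B and immature B. Calls below are on the CPM scale unless another scale is named.

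**Figure D1:**
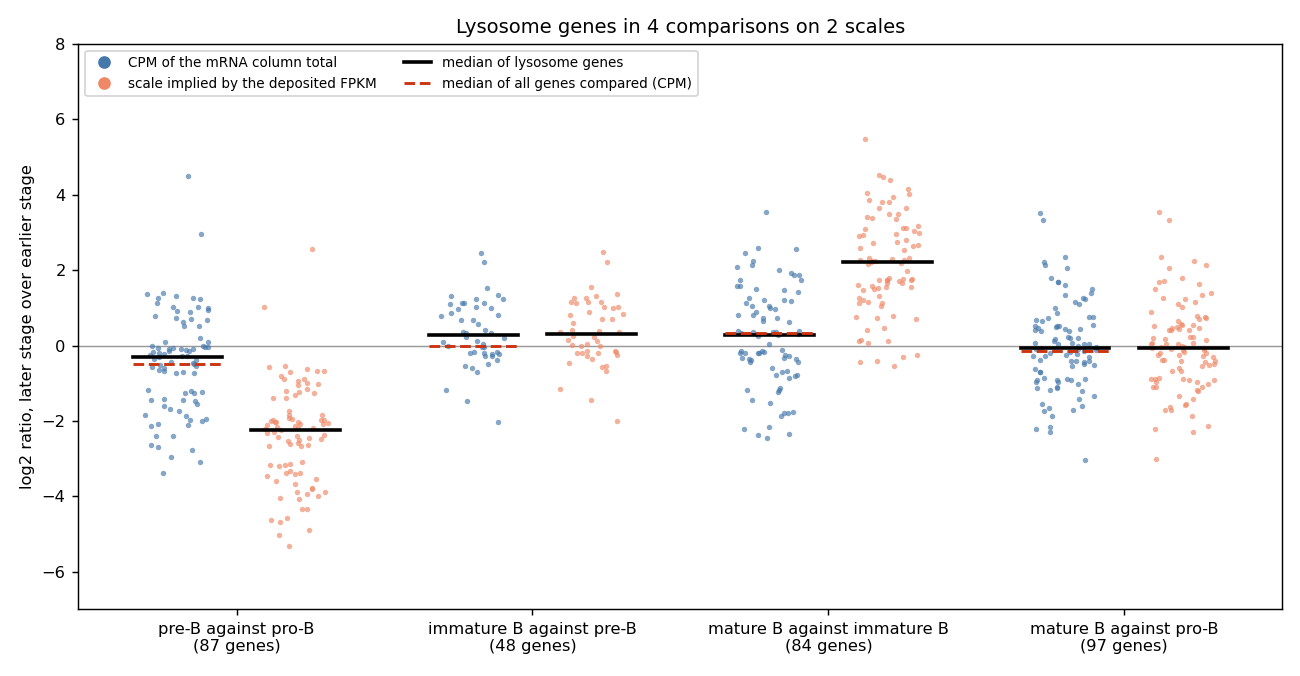
Log2 ratios of the lysosome genes compared in each of 4 comparisons (87, 48, 84 and 97 genes), each point a gene, on the scale of the mRNA column total (blue) and on the scale implied by the deposited FPKM values (orange). Black bars are medians of the lysosome genes and dashed red bars medians of all genes compared on the CPM scale. The orange points lie lower by 1.93 in pre-B against pro-B and higher by 1.92 in mature B against immature B, and nearly match the blue points in the other 2 comparisons.

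Per transcript length, the lysosome genes with the highest FPKM changed between the stages. Psap, which encodes the precursor of the saposins that activate sphingolipid hydrolysis, ranked first in pro-B cells at an FPKM of 51.2, followed by the membrane protein gene Laptm5 at 48.9. Laptm5 ranked first in immature B cells at 11.9 and in mature B cells at 83.7. In mature B cells the cathepsin genes Ctss and Ctsh followed at an FPKM of 33.1 and 25.9, where Psap stood at rank 9 with 16.4. Clathrin light chain Clta ranked first in pre-B cells at an FPKM of 8.64.

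By role, the 22 cathepsins summed to 969 CPM (95% interval 905 to 1037) in pro-B, 433 (354 to 525) in pre-B, 546 (453 to 652) in immature B and 1001 (935 to 1070) in mature B cells. By CPM the sum was about equal at both ends of the series, although different cathepsins made it up. The summed FPKM of the cathepsins, scaled to transcript length, was not equal, at 66.8 in pro-B and 106 in mature B cells. The 24 glycosidases summed to 609, 420, 555 and 693 CPM, and the 31 adaptor, clathrin and sorting genes to 2994, 2101, 2305 and 2815 CPM. The 24 membrane proteins and transporters summed to 1781, 1307, 1710 and 1790 CPM and the 10 V-ATPase subunits to 843, 712, 859 and 856 CPM. The 5 sphingolipid activator and lipid transfer genes summed to 972, 820, 615 and 393 CPM, lower at each later stage on the CPM scale. Psap carried most of that sum, and the other 4 summed to 144, 292, 163 and 129 CPM, highest in pre-B cells. For all 5 together the log2 ratio of mature B over pro-B was -1.30 (95% interval -1.49 to -1.12), and the fall from immature B to mature B cells alone turned to a gain on the FPKM scale. For the cathepsins the same ratio of sums was 0.05 (-0.09 to 0.19).

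**Figure D2:**
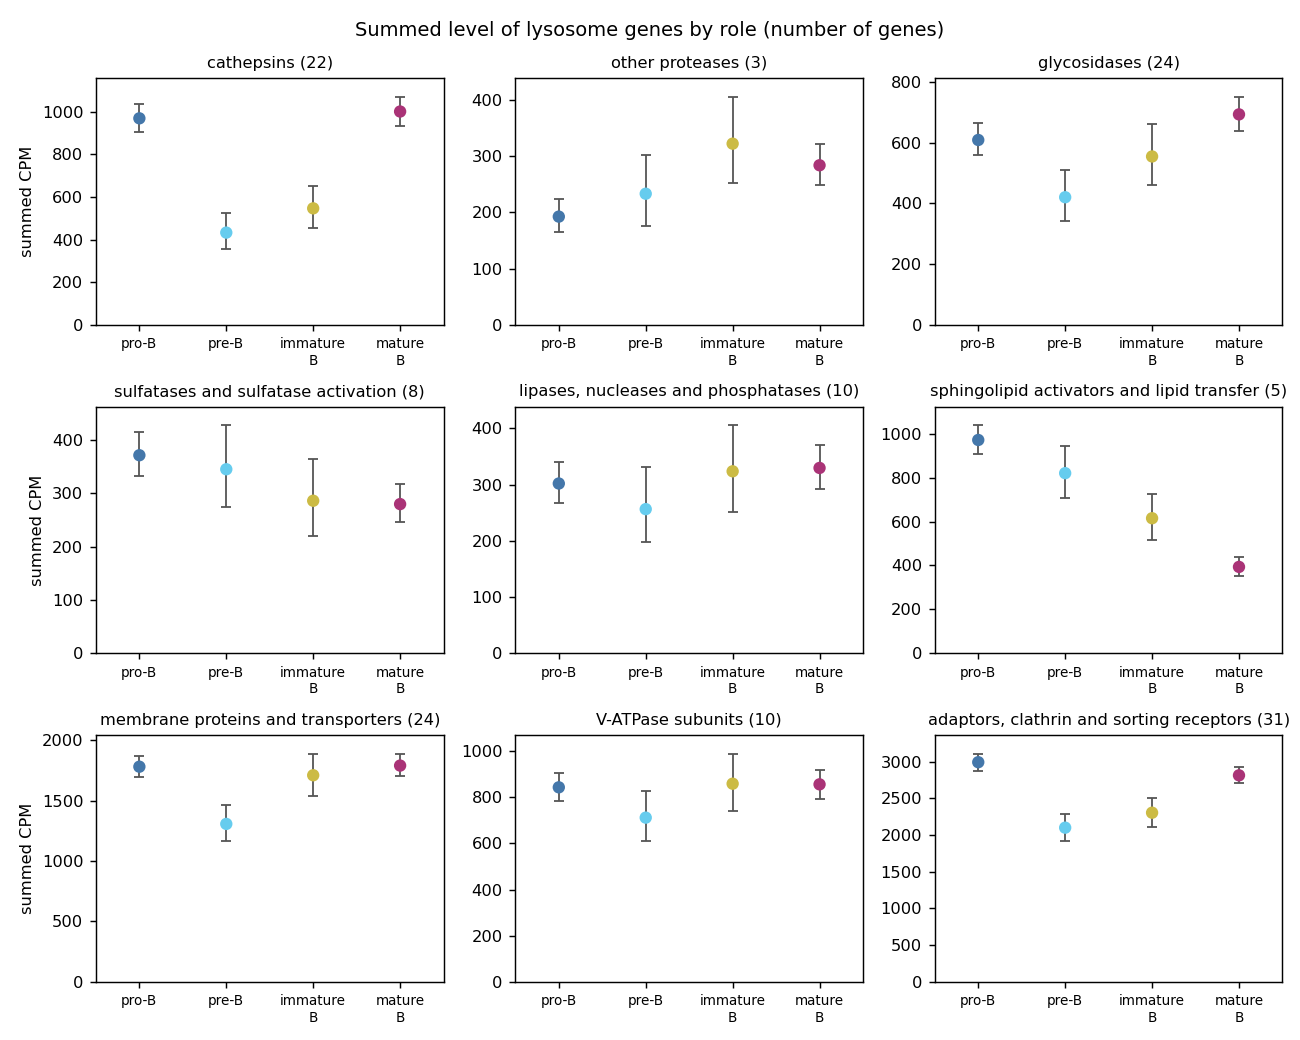
Summed CPM of the lysosome genes of 9 roles (number of genes in brackets) in the library of each stage. Points are the sums, bars are exact 95% counting intervals, and each axis starts at 0. Cathepsins were at 969 and 1001 CPM at the ends and 433 CPM in pre-B cells, and the sum of the sphingolipid activators, most of it Psap, fell from 972 to 393 CPM.

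Among the cathepsins, 4 were called higher in mature B than in pro-B cells and 2 lower, of 9 compared. In this pair 10.8% of all genes compared were called higher and 19.9% lower. These shares stand beside each count of calls by role below. Ctss, a cysteine protease that degrades the invariant chain of MHC class II, had 109, 7, 30 and 237 counts from pro-B to mature B. These were 126, 29.1, 134 and 279 CPM, lowest in the pre-B library and highest in the mature library. It was 2.22-fold higher in mature B than in pro-B cells (95% interval 1.76 to 2.81) and 4.61-fold higher in immature B than in pre-B cells (1.98 to 12.4).

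Ctsh, an aminopeptidase and endopeptidase, had 49, 2, 12 and 136 counts and was 2.84-fold higher in mature B than in pro-B cells (2.03 to 4.02). Ctso, a cysteine protease, had 25, 10, 6 and 84 counts and was 3.43-fold higher (2.17 to 5.6), with 30.4 of its 84 mature counts on a transcript that the lncRNA table lists as non-coding. Ctsc, the dipeptidyl peptidase that activates serine proteases of granules, had 91, 6, 9 and 150 counts, 1.68-fold higher in mature B than in pro-B cells (1.29 to 2.21) and so under the 2-fold limit. All 4 of these genes were higher in mature B than in immature B cells on the CPM scale, by 2.08-fold for Ctss to 4.39-fold for Ctsc, and by more on the FPKM scale.

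Ctsz, a carboxypeptidase, was read in the mature library alone, with 33.9 counts or 39.9 CPM (95% interval 27.7 to 55.9). The other libraries held 0 counts, which allows up to 3.46 CPM in pro-B, 12.5 CPM in pre-B and 13.4 CPM in immature B cells. Taking 0 as 3 counts, the level in mature B cells was at least 11.5-fold higher than in pro-B cells and at least 2.97-fold higher than in immature B cells, and the exact 95% intervals of these ratios began at 8.92 and 2.30. Ctsz, Manba, Fuca1 and Acp5, with Ap4e1 and Nagpa, were the lysosome genes that the study placed in its network of RNAs raised in mature B cells. That choice was made on these libraries, so their direction here is not independent evidence.

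Another set of cathepsins was highest in pro-B cells. Ctsb, an abundant endopeptidase and carboxypeptidase, had 309, 22, 27 and 68 counts, or 356, 91.6, 121 and 80.1 CPM. It stood apart in the pro-B library, 4.45-fold above mature B cells (3.41 to 5.87) and 3.89-fold above pre-B cells (2.52 to 6.29). Ctsd, the main aspartic protease of lysosomes, had 140, 10.7, 23.5 and 69.7 counts and was 1.97-fold higher in pro-B than in mature B cells (1.46 to 2.65), just under the limit. Gm49369, which has the same KEGG ortholog as Ctsd, had 53.5, 9.3, 8.5 and 11.3 counts, and reads may be split between the pair, so both values are uncertain. Ctsl, a cysteine endopeptidase, had 58, 14, 8 and 28 counts and was 2.03-fold higher in pro-B than in mature B cells (1.27 to 3.31).

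Ctsw, a cathepsin of NK cells and cytotoxic T cells, was read in pro-B cells alone, with 19 counts. The NK and T cell list was also highest in the pro-B library, at 178, 0, 0 and 5 counts, and the granzyme gene Gzma alone had 106, 0, 0 and 0 counts. The plasmacytoid dendritic cell gene Siglech, with 105, 0, 4 and 0 counts, and Mpeg1 of the monocyte list, with 481, 0, 2.69 and 31.9 counts, were also highest in the pro-B library, as Ctsb and Psap were. Other genes of the monocyte list were not, with Lyz2 at 321, 366, 233 and 246 CPM and Adgre1 at 4, 0, 0 and 16 counts. Their part in the pro-B levels of the lysosome genes was not tested. Ctsg, a serine protease of neutrophil granules, had 15, 10, 0 and 3 counts. Ctse, an aspartic protease of endosomes, had 22.1, 2, 2 and 25.4 counts.

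Ctsa, a carboxypeptidase that protects beta-galactosidase and neuraminidase, had its highest CPM in pre-B cells, as Ctsg did on fewer counts. Ctsa had 3.22, 20.2, 4.61 and 13.1 counts, of which 4.53 of the pre-B counts lay on transcripts listed as non-coding. Its pre-B CPM was 22.7-fold above pro-B (7.14 to 127) and 4.08-fold above immature B cells (1.36 to 12.7). It was also called higher in pre-B cells against pro-B on the FPKM scale, but without the non-coding transcripts it fell under 20 counts in that pair.

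**Figure D3:**
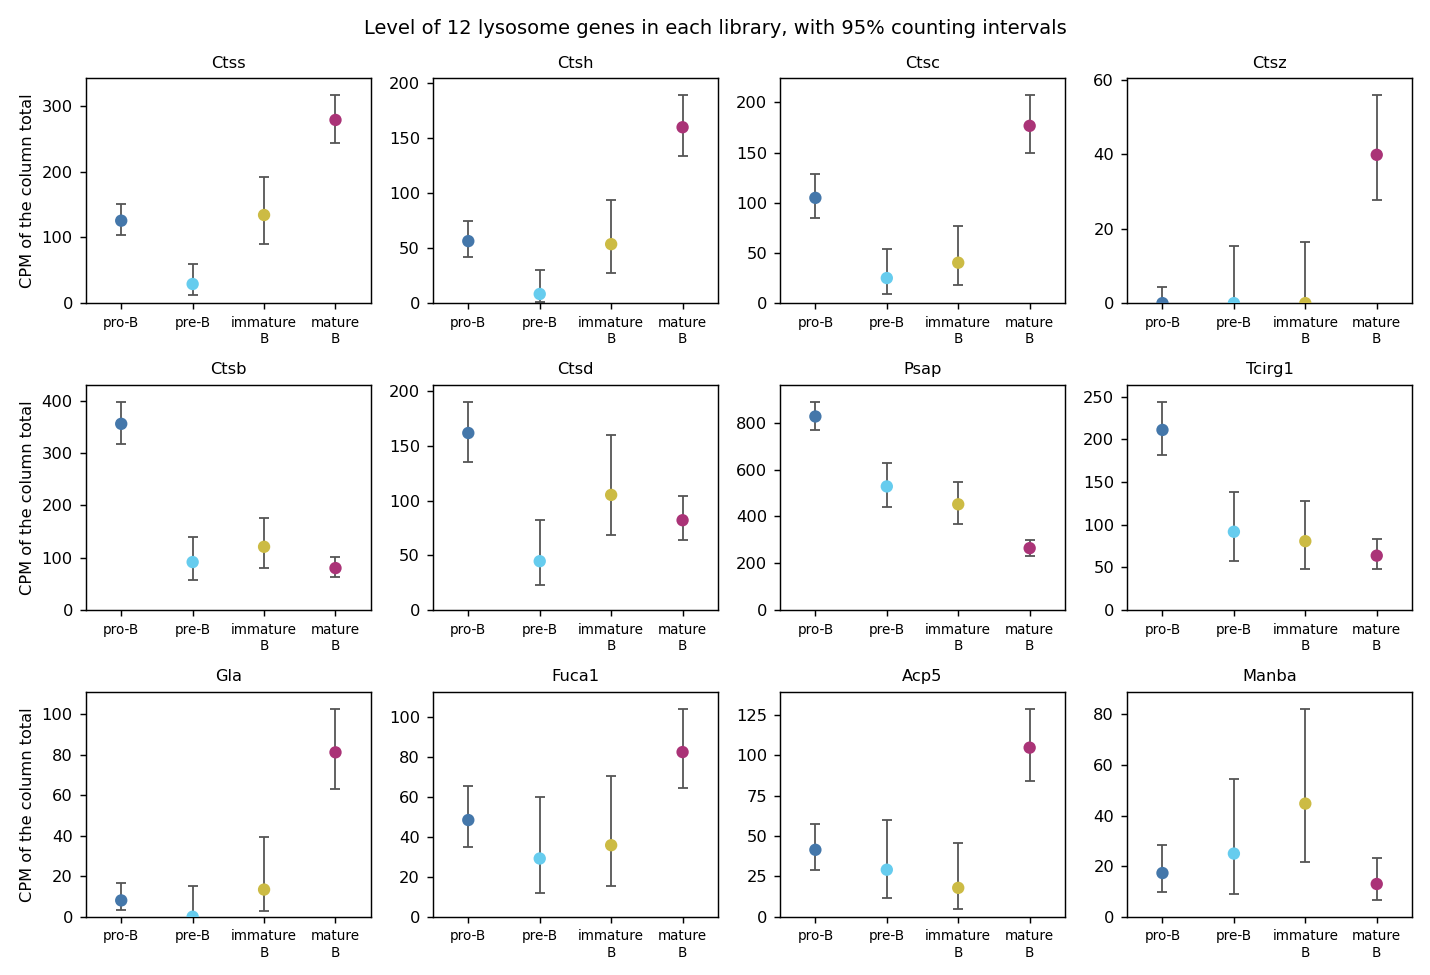
CPM of 12 lysosome genes in the library of each stage, with exact 95% Poisson intervals as bars and each axis starting at 0. Ctss, Ctsh, Ctsc, Ctsz, Gla, Fuca1 and Acp5 were highest in mature B cells, Ctsb, Ctsd, Psap and Tcirg1 were highest in pro-B cells, and Manba had wide intervals on 6 to 15 counts per library.

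The other proteases showed no call between pro-B and mature B cells. Napsa, an aspartic protease, had 76, 16, 35 and 117 counts and was 1.57-fold higher in mature B than in pro-B cells (1.17 to 2.13). It was 2.35-fold higher in immature B than in pre-B cells (1.27 to 4.55). Lgmn, the asparaginyl endopeptidase that processes cathepsins, had 46, 30, 20 and 66 counts, and its CPM in pre-B cells was 2.36-fold above pro-B (1.44 to 3.81), a direction that turned on the FPKM scale. Tpp1, a tripeptidyl peptidase, had 45, 10, 17 and 58 counts and was called in no comparison on the CPM scale. On the FPKM scale its log2 ratio of pre-B against pro-B was -2.25.

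Of 24 glycosidases, 15 were compared between mature B and pro-B cells, with 2 called higher and 3 lower. Gla, the alpha-galactosidase that clears globotriaosylceramide, had 7, 0, 3 and 69 counts, so the mature library held 69 of its 79 counts. Its 81.2 CPM in mature B cells was 10.1-fold above pro-B (4.64 to 26.0) and 6.05-fold above immature B cells (1.99 to 30.1).

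Hexa, the alpha subunit of beta-hexosaminidase A, went the other way from Gla, with 52, 6, 12 and 20 counts and a 2.54-fold higher level in pro-B than in mature B cells (1.49 to 4.50). Gusb, the beta-glucuronidase, had 59, 12, 12 and 25 counts and was 2.31-fold higher in pro-B than in mature B cells (1.42 to 3.85). Fuca2, a secreted fucosidase, had 34, 4, 5 and 11 counts and was 3.02-fold higher in pro-B cells (1.5 to 6.62).

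Fuca1, the lysosomal alpha-fucosidase, had 42, 7, 8 and 70 counts, or 48.4, 29.1, 35.8 and 82.4 CPM. It was 2.30-fold higher in mature B than in immature B cells (1.11 to 5.54) and 1.70-fold higher than in pro-B cells (1.15 to 2.56), the latter under the limit. Of its counts 21.7 of 70 in mature B and 4.71 of 8 in immature B cells lay on non-coding transcripts, and without these mature B cells were 3.81-fold above immature B cells (1.34 to 20.8). Manba, the beta-mannosidase, had 15, 6, 10 and 11 counts, or 17.3, 25.0, 44.7 and 12.9 CPM. By CPM it was 3.45-fold lower in mature B than in immature B cells (1.32 to 8.96), while its deposited FPKM was 1.18 in immature B and 4.70 in mature B cells, the opposite direction. On the scale that FPKM implies, the log2 ratio of its counts was 0.13 in place of -1.79, so the direction for Manba depends on the scale. Without non-coding transcripts it had under 20 counts in that pair.

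Man2b1, the lysosomal alpha-mannosidase, had 67, 17, 14 and 94 counts and was 1.43-fold higher in mature B than in pro-B cells (1.04 to 1.99). Neu1, the lysosomal sialidase, had 73, 9, 18 and 60 counts and was 2.25-fold lower in pre-B cells than in pro-B (1.12 to 5.10). With the library sizes of DESeq2 it fell to 1.98-fold and was not called. The hyaluronidases Hyal1, Hyal2 and Hyal3 had 13.7, 19 and 2 counts over all libraries, and Hyal4, Hyal5, Hyal6 and Spam1 had 0.

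Of 8 sulfatase genes, 1 was called higher and 1 lower in mature B than in pro-B cells. Arsb, which removes sulfate from dermatan and chondroitin sulfate, had 75, 2, 4 and 20 counts and was 3.67-fold higher in pro-B than in mature B cells (2.22 to 6.35), or 6.68-fold (3.51 to 13.9) without non-coding transcripts. On the 2 counts of the pre-B library, it was 10.4-fold lower there than in pro-B cells, with an interval from 2.78 to 87.3. Sgsh, the heparan N-sulfatase, had 7, 5, 0 and 32 counts and was 4.67-fold higher in mature B than in pro-B cells (2.03 to 12.5), with 17.1 of the 32 counts on non-coding transcripts.

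Ids, the iduronate sulfatase, had 20, 12, 4 and 20 counts and was called in no comparison. Galns and Arsa, which remove sulfate from keratan sulfate and from sulfatide, were lower in mature B than in immature B cells by 4.68-fold (2.11 to 10.6) and 3.48-fold (1.39 to 8.62) on the CPM scale and were called in neither direction on the FPKM scale. For Arsa, 5.19 of the 11 immature counts lay on non-coding transcripts, and without them it had under 20 counts in that pair and was not called.

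Of 10 lipases, nucleases and phosphatases, 8 were compared between mature B and pro-B cells, with 2 called higher and 1 lower. Acp5, the tartrate-resistant acid phosphatase known from osteoclasts, had 36, 7, 4 and 89 counts, or 41.5, 29.1, 17.9 and 105 CPM. It was 2.53-fold higher in mature B than in pro-B cells (1.70 to 3.83) and 5.85-fold higher than in immature B cells (2.21 to 22.0). The osteoclast genes Ctsk, Calcr, Ocstamp, Dcstamp and Atp6v0d2 were at 0 counts in the same libraries, while Mmp9 of that list had 60, 11, 7 and 44 counts. Whether osteoclasts had a part in the Acp5 level was not tested. Dnase2a, the acid endonuclease, had 16, 4, 8 and 48 counts and was 3.07-fold higher in mature B than in pro-B cells (1.71 to 5.78), but 39.8 of the 48 mature counts lay on non-coding transcripts, and without them the gene was not called.

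Lipa, the acid lipase that frees cholesterol from its esters, had 38, 2, 2 and 36 counts and was nearly level between pro-B and mature B cells, with a ratio of 1.03 (0.637 to 1.68). Asah1, the acid ceramidase, had 75, 17, 39 and 52 counts and was 2.47-fold higher in immature B than in pre-B cells (1.36 to 4.65). Smpd1, the acid sphingomyelinase, had 21, 11, 12 and 9 counts and was 2.28-fold higher in pro-B than in mature B cells, with an interval that began at 1.0. The palmitoyl thioesterase gene Ppt1 had 18.9, 12.6, 0 and 10 counts.

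All 4 sphingolipid activator and lipid transfer genes compared were called between mature B and pro-B cells, 1 higher and 3 lower. Psap had 718, 127, 101 and 224 counts, or 828, 528, 452 and 264 CPM, the most of any of these genes in the pro-B library after the clathrin gene Cltc. It was 3.13-fold higher in pro-B than in mature B cells (2.70 to 3.66). Its FPKM of 51.2, 8.51, 7.35 and 16.4 was also highest in pro-B cells but was higher again in mature B than in immature B cells.

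Npc2, which binds cholesterol in the lumen, had 54, 14, 13 and 18 counts and was 2.94-fold higher in pro-B than in mature B cells (1.69 to 5.32). Psapl1, a paralog of Psap, had 25, 54, 18 and 0 counts, or 28.8, 225, 80.5 and 0 CPM. It was 7.80-fold higher in pre-B cells than in pro-B (4.77 to 13.1), 2.79-fold lower in immature B than in pre-B cells (1.61 to 5.06), and at least 8.16-fold lower in mature B than in pro-B cells with 0 taken as 3 counts, where the exact interval began at 6.15. The peak in pre-B cells held on both scales, with an FPKM of 1.80, 3.69, 1.34 and 0.

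Gm2a, the activator that presents GM2 ganglioside to hexosaminidase, had 42.3, 0, 5.48 and 88.6 counts. It was 2.14-fold higher in mature B than in pro-B cells (1.48 to 3.20). In pre-B cells it was at least 3.90-fold lower than in pro-B cells with 0 taken as 3 counts, where the exact interval began at 3.02.

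Of 24 membrane proteins and transporters, 18 were compared between mature B and pro-B cells, with 3 called higher and 2 lower. Laptm5 had 402, 17.2, 35.0 and 537 counts, or 463, 71.4, 156 and 632 CPM, high at both ends and low between. It was 6.49-fold lower in pre-B cells than in pro-B (4.04 to 11.3), 2.19-fold higher in immature B than in pre-B cells (1.21 to 4.21) and 4.04-fold higher in mature B than in immature B cells (2.87 to 5.86). Between pro-B and mature B cells the ratio was 1.36 (1.20 to 1.56). Of the 35.0 immature counts 11.3 lay on non-coding transcripts, and without those the ratio of immature B over pre-B was 1.51 (0.783 to 3.01) and not called, while that of mature B over immature B was 5.59. Abca2, a lipid transporter, was also high at both ends with 96, 6, 16 and 93 counts. Of its 16 immature counts 0.81 lay on non-coding transcripts. Without those its ratio of immature B over pre-B was still 2.72, but the interval (0.986 to 8.46) reached equal levels and the call was lost.

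Mcoln1, the calcium channel TRPML1, had 6, 10, 4 and 30 counts and was 5.11-fold higher in mature B than in pro-B cells (2.09 to 15.0). Mfsd8, a chloride channel linked to a form of Batten disease, had 49, 27, 44 and 96 counts and was 2-fold higher in mature B cells (1.40 to 2.89). Hgsnat, the acetyltransferase of heparan sulfate breakdown, had 8, 4, 4 and 25 counts with a ratio of 3.19 (1.40 to 8.19), but its deposited FPKM had a log2 ratio of -0.10.

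Slc11a2, the iron transporter DMT1, had 67, 7, 6 and 20 counts and was 3.28-fold higher in pro-B than in mature B cells (1.96 to 5.70). Cln3, a membrane protein named for Batten disease, had 20, 2, 2 and 4 counts and was 4.89-fold higher in pro-B cells (1.64 to 19.7), but 6.11 of the 20 pro-B counts and 2 of the 4 mature counts lay on non-coding transcripts, and without them it had under 20 counts and was not called. The abundant structural proteins of the membrane were called in no comparison on the CPM scale: Lamp1 had 167, 33, 30 and 101 counts and Lamp2 had 87, 20, 19 and 93 counts. On the FPKM scale the log2 ratio of Lamp1 in pre-B against pro-B cells was -2.42. Cd164, a sialomucin, had 218, 22, 41 and 162 counts, 2.74-fold lower in pre-B cells than in pro-B (1.77 to 4.47) and 2-fold higher in immature B than in pre-B cells (1.17 to 3.53). Litaf, which recruits sorting complexes to late endosomes, had 108, 29, 12 and 56 counts and was 2.25-fold lower in immature B than in pre-B cells (1.11 to 4.84). Entpd4 and Entpd4b, near-identical nucleotidases of the Golgi and lysosome, had 33.5, 19, 38.5 and 28.4 counts and 33.5, 19, 38.5 and 26.6 counts. Reads were split evenly between them in 3 of the 4 libraries, so neither can be read alone.

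**Figure D4:**
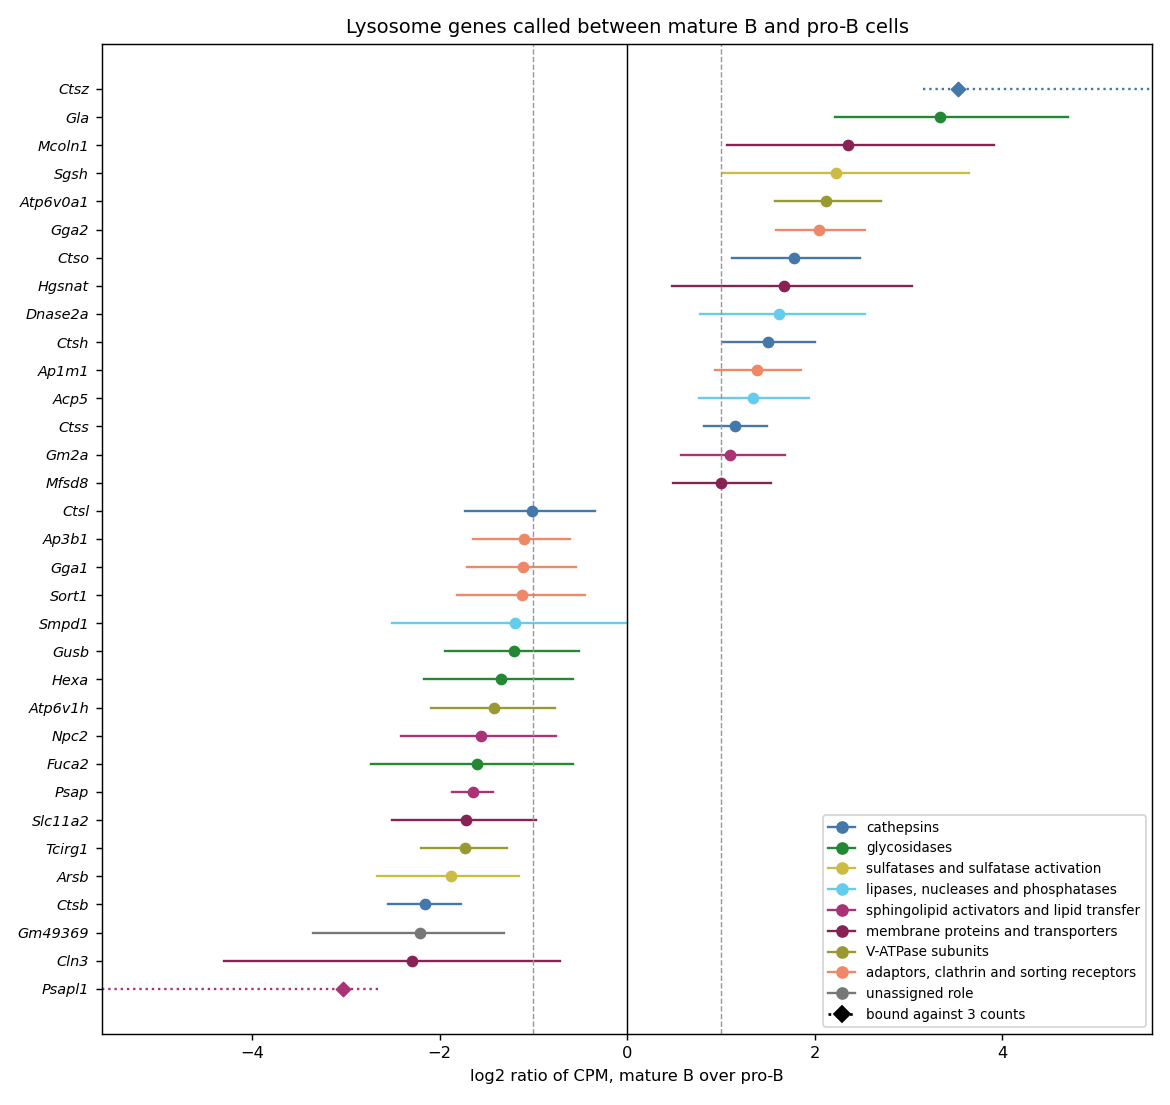
Log2 ratio of CPM, mature B over pro-B, of 33 of the 34 lysosome genes called between these libraries, with 95% counting intervals and colours for the role. Dotted lines with diamonds are bounds where 1 library held 0 counts, and dashed lines mark the 2-fold limit. Ctsz and Gla lie highest, at 3.53 and 3.33, and Psapl1 and Cln3 lowest, at -3.03 and -2.29.

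Of the 10 V-ATPase genes in the pathway, 1 was called higher and 2 lower in mature B than in pro-B cells. The membrane-embedded a subunit comes in several isoforms, and 2 of them had opposite calls. Atp6v0a1 had 34, 8, 19 and 145 counts, or 39.2, 33.3, 85.0 and 171 CPM, and was 4.36-fold higher in mature B than in pro-B cells (2.98 to 6.53). Tcirg1, which encodes the a3 isoform, had 183, 22, 18 and 54 counts, or 211, 91.6, 80.5 and 63.6 CPM, and was 3.32-fold higher in pro-B cells (2.44 to 4.58). Of the 145 mature counts of Atp6v0a1, 34.3 lay on non-coding transcripts. Atp6v0a2 had 65, 5, 4 and 58 counts and did not differ between the ends beyond counting error, with a ratio of 1.10 (0.758 to 1.59).

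The accessory subunit gene Atp6ap1 had 100, 51, 41 and 141 counts, and the proteolipid gene Atp6v0c had 142, 26, 28 and 134 counts, of which 49.4 of the mature counts were non-coding. Neither was called in any comparison. Atp6v1h, which is needed for ATP hydrolysis to drive the pump, had 76, 21, 25 and 27.7 counts and was 2.68-fold higher in pro-B than in mature B cells (1.70 to 4.26). Outside the pathway rows, the other 12 genes of the cytosolic V1 sector summed to 493, 521, 338 and 340 CPM. Of 7 compared between mature B and pro-B cells, 0 were called higher and 2 lower, beside 10.8% and 19.9% of all genes.

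Of 31 adaptor, clathrin and sorting genes, 24 were compared between mature B and pro-B cells, with 2 called higher and 3 lower. Cltc, the clathrin heavy chain and the lysosome gene with the most counts, had 917, 93, 84 and 738 counts, or 1057, 387, 376 and 869 CPM. It was 2.73-fold lower in pre-B cells than in pro-B (2.2 to 3.42), 2.31-fold higher in mature B than in immature B cells (1.84 to 2.93), and close between pre-B and immature B cells at a ratio of 1.03 (0.759 to 1.40).

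The GGA adaptors, which pick up mannose 6-phosphate receptors at the trans-Golgi network, did not move as one. Gga2 had 48, 8, 41 and 194 counts and was 4.13-fold higher in mature B than in pro-B cells (3 to 5.79). Its rise was already present in immature B cells, 5.51-fold above pre-B (2.55 to 13.6), which was the largest called ratio of that comparison. Gga1 had 84, 0, 3 and 38 counts and was 2.16-fold higher in pro-B than in mature B cells (1.46 to 3.26), and Gga3 had 7.7 counts in all. Ap1m1, the medium chain of the AP-1 adaptor, had 57, 3, 16 and 146 counts and was 2.62-fold higher in mature B than in pro-B cells (1.91 to 3.62). The AP-3 subunit gene Ap3b1 had 104, 21, 16 and 47.4 counts and was 2.15-fold higher in pro-B cells (1.52 to 3.12), while the AP-3 subunit gene Ap3d1 had 209, 39, 32 and 214 counts and was level, at a ratio of 1.05 (0.861 to 1.27).

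The enzyme that makes the mannose 6-phosphate tag has its catalytic and regulatory subunits encoded by Gnptab and Gnptg. Gnptab had 87, 6, 2 and 89 counts, or 100, 25.0, 8.95 and 105 CPM, and Gnptg had 152, 110, 88 and 92 counts, or 175, 458, 394 and 108 CPM. By CPM, Gnptab was at its lowest and Gnptg at its highest in pre-B and immature B cells, whereas the FPKM of Gnptg was 12.7, 8.51, 7.61 and 7.74. Gnptab was 11.7-fold higher in mature B than in immature B cells (3.15 to 98.2, on 2 counts in immature B cells), whereas Gnptg was 3.64-fold lower (2.68 to 4.92) on the CPM scale and 0.06 higher in log2 on the FPKM scale. Of the receptors, Igf2r had 120, 14, 10 and 86 counts, Sort1 had 62, 2, 2 and 28 counts, and the cation-dependent receptor gene M6pr reached 3.15 counts in mature B cells alone. Sort1 was 2.17-fold higher in pro-B than in mature B cells (1.37 to 3.52). With the library sizes of edgeR or DESeq2, Sort1, Gga1, Ap3b1 and Ctsl fell under the 2-fold limit in that pair.

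Another list, no part of the pathway rows, held 22 genes of the TFEB family and of mTORC1 signaling at the lysosome. Between mature B and pro-B cells 15 were compared, with 0 called higher and 4 lower. The shares of all genes called were 10.8% and 19.9%. Tfeb had 72, 37, 43 and 124 counts and was called in no comparison on the CPM scale, as was Tfe3 with 37, 11, 12 and 50 counts. For Tfeb the ratio of mature B over pro-B was 1.76, under the 2-fold limit, with a log2 interval (0.39 to 1.26) that left out equal levels. For Tfe3 it was 1.38, with a log2 interval from -0.18 to 1.12. Mitf and Tfec had at most 2 counts in any library. Mtor had 290, 54, 39 and 129 counts and was called lower in mature B than in pro-B cells, and so was Rragd, a GTPase that brings mTORC1 to the lysosome, with 31, 8, 9 and 2 counts. Of 8 cystatin genes found, which encode cathepsin inhibitors, only Cst3 had enough counts, with 97, 32, 10 and 78.

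The core of the element that TFEB binds, CACGTG, which reads the same on both strands, was searched in the promoter windows of RefSeq (build GRCm38.p6), 250 bases before to 50 after each start. Of the lysosome genes, 114 had a window, and 25 of them (21.9%) held CACGTG against 9.16% of the 16808 genes of the mRNA table with a window. The longer form TCACGTGA, which contains the core, was in 10 of 114 (8.77%) against 1.43%. The windows of Ctsz, Manba, Fuca1 and Acp5 held neither. The stretches below, 1 for each of 6 genes, lie wholly upstream of the start and are shown because their genes differ in course, with one TCACGTGA in capitals and 30 bases on each side.
Gla, chrX:134601163-134601230, minus strand: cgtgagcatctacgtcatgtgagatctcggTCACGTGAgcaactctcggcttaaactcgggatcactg
Mcoln1, chr8:3500443-3500510, plus strand: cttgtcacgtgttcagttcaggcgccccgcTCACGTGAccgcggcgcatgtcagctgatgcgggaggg
Cln3, chr7:126583321-126583388, minus strand: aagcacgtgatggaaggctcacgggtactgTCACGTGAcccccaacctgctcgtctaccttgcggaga
Ctsd, chr7:142387889-142387956, minus strand: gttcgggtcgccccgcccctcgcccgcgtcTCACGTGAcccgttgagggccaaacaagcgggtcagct
Cd164, chr10:41519382-41519449, plus strand: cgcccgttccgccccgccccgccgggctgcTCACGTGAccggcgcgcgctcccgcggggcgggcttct
Igf2r, chr17:12769718-12769785, minus strand: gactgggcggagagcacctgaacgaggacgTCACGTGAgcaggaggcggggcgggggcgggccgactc

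Counted from the gene start, the motif in capitals begins at position -195 in Gla, -46 in Mcoln1, -122 in Cln3, -99 in Ctsd, -88 in Cd164 and -49 in Igf2r. Another TCACGTGA begins at -228 in Gla and at -8 in Igf2r. The other 4 genes with TCACGTGA were Ctsa, Sumf1, Atp6v0d1 and Gnptg. The genes that carry it had no common course. Between mature B and pro-B cells 9 of the 10 were compared, Gla and Mcoln1 were called higher and Cln3 was called lower. The median log2 ratio was -0.40 beside 0.03 for the 66 compared genes with a window and no TCACGTGA. Among those 66, 10 were called higher and 12 lower. The letters describe these windows and do not show that a factor was bound.

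Outside the gene counts, 5 of the 1005 circRNAs in the circRNA table came from loci of lysosome genes. Of these, 3 were antisense to Ctsb, Asah1 and Gnptab, with 6, 4 and 4 back-spliced reads in immature B cells, and 1 was antisense to Mfsd8, with 4 reads in pre-B cells. The 5 circRNAs held 26 of the 6371 back-spliced reads in all. None of the 26 was in mature B cells, but so few reads cannot compare the stages. The lncRNA table listed 130 non-coding transcripts of 60 lysosome genes, and their counts made up 1.37%, 2.61%, 4.22% and 4.32% of the lysosome gene counts from pro-B to mature B.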

How the data were processed

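Total RNA of sorted bone marrow B cells was sequenced after rRNA depletion, with 1 library per stage. The 4 small RNA libraries were not used here. The authors removed rRNA reads with Bowtie2, mapped the rest with HISAT2 using strand and quantified genes with StringTie. The estimated counts were deposited without normalization and are not all whole. The deposited FPKM values were scaled by the authors for length and for fragments mapped to reference genes. The counts of circRNAs were deposited as back-spliced reads from find_circ, and the RPM values the authors deposited beside them were not used. The columns of gene annotation were used for KEGG membership.

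Counts were divided by the mRNA column total. A gene entered a comparison with 20 counts over the 2 libraries, and a count of 0 entered ratios as 3 counts. Intervals are exact 95% intervals (Clopper-Pearson for ratios, Poisson for CPM) or Wilson intervals for shares, and cover counting error only. The call rule was tested on simulated data. No test over replicates could be made with 1 library per stage. Named were Ctsz, Manba, Fuca1 and Acp5, the 3 genes with the most counts in each role, and the 3 with the largest called ratio in each direction of each comparison, 45 genes in all. Other genes were named after their values were seen, and some genes are not reported here. The genes and lists were chosen with earlier results of these data known. Non-coding counts were those of transcripts with the same symbol in the lncRNA table, and gene counts include them: in each library at least 99.9% of genes had a gene count no smaller, within 0.05 counts. Alternatives were library sizes from edgeR 4.0.16 and DESeq2 1.42.0 (R 4.3.3), the scale implied by FPKM, no minimum count and the 2-fold limit alone. Scripts ran in Python 3.11.15 with scipy 1.17.1 for intervals, pandas 2.3.3 and numpy 2.4.6 for tables, and matplotlib 3.10.9 for figures.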

Additional observations from a re-analysis of the deposited data

How the results depend on the processing

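Under the library sizes of edgeR and DESeq2, counts of called lysosome genes stayed within 1.5 times and medians moved by at most 0.18 in log2. In mature B against pro-B cells both lost 5 of 34 calls, those of Ap3b1, Ctsl, Gga1, Smpd1 and Sort1, all lower in mature B cells, and gained 1. In pre-B against pro-B cells DESeq2 sizes lost 3 of 34 calls, among them Hexa and Neu1, and gained 4, while edgeR sizes lost 0 and gained 1. In immature B against pre-B cells DESeq2 sizes lost 1 of 14 calls, that of Cd164. In mature B against immature B cells edgeR sizes lost 1 of 34 and gained 1. On the scale implied by the deposited FPKM values, 2 genes were called higher and 70 lower in pre-B against pro-B cells with a median log2 ratio of -2.25, and 68 higher and 0 lower in mature B against immature B cells with a median of 2.21. That scale differs from the column total for a reason that was not tested. Of the mRNA and lncRNA counts together, mRNA was a smaller share in pre-B and immature B cells. The FPKM scale turned the log2 ratio of pre-B against pro-B to -0.70 for Lgmn, -0.55 for Gnptg and -0.90 for both Entpd4 and Entpd4b. It turned that of mature B against immature B to 0.13 for Manba, 0.41 for Asah1, 0.46 for Npc2 and 0.056 for Gnptg. Without a minimum count, 5 genes in place of 3 were called lower in immature B against pre-B cells, where 96 genes could then be compared. The 2-fold limit alone kept the counts of calls within 1.5 times.

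Dividing the counts by 2 before the interval was taken was chosen after seeing the data, since between 75.4% and 78.6% of counts under 20 were even and a read pair may have been counted at each end. It left 4 higher and 1 lower calls in immature B against pre-B cells, beside 7.86% and 7.97% of all genes, and 13 higher calls in mature B against immature B cells, beside 17.9%. Removing non-coding transcripts, also chosen after seeing the data, kept all counts of calls within 1.5 times but lost 1 of 34 calls in pre-B against pro-B, 2 of 14 in immature B against pre-B, 4 of 34 in mature B against immature B and 3 of 34 in mature B against pro-B cells. No paired analysis was possible because each stage has 1 library, and no library could be left out. Of the lysosome genes, 29 in immature B and 26 in pre-B cells had 20 counts or more, against 76 in pro-B and 72 in mature B cells. Most ratios that use the small mRNA columns of pre-B or immature B cells are therefore imprecise.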
